A study of Mus musculus with 8 samples.

Results

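Kit, the stem cell factor receptor, and its ligand Kitl were followed probe set by probe set through 3 kinds of RNA taken from BALB/c small intestine at an age of 6 to 9 days. The groups were isolated ICC-DMP cells (3 arrays), isolated ICC-MY cells (3 arrays) and whole tunica muscularis (2 arrays), which is the muscle wall of the gut and is called tissue here. All groups share strain and age, and no allele, transgene or treatment is named for any of them. ICC are interstitial cells of Cajal, and DMP and MY are read here as the deep muscular and the myenteric plexus, since the labels print only the abbreviations. Members were taken by name: every probe set that the array's annotation assigns to Kit alone or to Kitl alone. That gave 2 genes and 6 of 45037 probe sets, 2 for Kit and 4 for Kitl. A probe set is a group of short probes whose signals were joined into 1 value, given here on a log2 scale, so a difference of 1 is a 2-fold change. The titles call the samples biological replicates without saying whether they came from separate animals, so a p-value measures a difference against the spread between these samples.

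Kit is a receptor tyrosine kinase of the cell surface. When Kitl binds, receptors pair, phosphorylate each other and recruit adaptors, lipid kinases and SRC-family kinases, which feed the RAS-MAPK, AKT and STAT pathways. In gut muscle Kit marks the interstitial cells of Cajal, which need its signal to develop and persist, while Kitl is made by neighbouring cells such as smooth muscle cells and enteric neurons, as a membrane-bound or a shed protein. Outside the ICC, mast cells, melanocytes and blood progenitors carry Kit. The labels used here do not say how the cells were isolated. ICC are commonly sorted on Kit protein, and if that was done here, a higher Kit level in ICC than in tissue partly restates how they were picked.

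Kit lies on mouse chromosome 5 at 75574987 to 75656722 and Kitl on chromosome 10 at 100015615 to 100100416 (GRCm38.p6, RefSeq). The 250 bases before a RefSeq start of each gene are printed because the list of factors described further on includes ones known to act on Kit through such sites. Both windows are on the plus strand, chr5:75574737-75574986 for Kit and chr10:100015571-100015820 for Kitl, and capitals mark GC boxes (GGGCGG on either strand, 2 of them overlapping in Kitl) and the letters TATAAA.
Kit: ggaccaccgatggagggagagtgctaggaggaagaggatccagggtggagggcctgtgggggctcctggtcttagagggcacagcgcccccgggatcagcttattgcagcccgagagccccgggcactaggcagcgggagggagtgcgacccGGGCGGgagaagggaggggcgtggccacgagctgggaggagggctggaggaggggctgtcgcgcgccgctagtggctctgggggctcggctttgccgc
Kitl: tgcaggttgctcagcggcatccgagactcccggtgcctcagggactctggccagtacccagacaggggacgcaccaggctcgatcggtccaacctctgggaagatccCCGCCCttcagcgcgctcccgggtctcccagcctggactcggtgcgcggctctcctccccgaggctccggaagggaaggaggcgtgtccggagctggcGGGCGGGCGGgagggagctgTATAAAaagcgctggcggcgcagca
The Kit window held 1 GC box and the Kitl window 3, and 32.7% of 32851 windows of this length held at least 1. TATAAA, searched on both strands, was found once in Kitl and not in Kit, and in 12.4% of all windows. The E-box letters CANNTG (in 66.2% of all windows) and GATA (in 53.6%, both strands) were in neither. A match is a description of these letters and not a bound site. The Kit window lies wholly before the gene span given above. The Kitl window precedes a later annotated start at 100015821, so 44 of its bases lie before the gene span and 206 inside it.

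Both Kit probe sets were higher in each ICC class than in the tunica muscularis. The brighter of them, 1452514_a_at, read 11.07, 11.34 and 10.84 in ICC-DMP replicates 1, 2 and 3, 10.81, 12.42 and 11.99 in ICC-MY replicates 1, 2 and 3, and 7.20 and 8.43 in tunica muscularis replicates 1 and 2. Every ICC array lay above both tissue arrays, and the 2 ICC classes overlapped. Group means were 11.09 ± 0.25 (SD, n = 3) in ICC-DMP, 11.74 ± 0.83 (SD, n = 3) in ICC-MY and 7.82 ± 0.87 (SD, n = 2) in tissue.

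Against tissue that probe set was higher by 3.27 in ICC-DMP (SE 0.50, 95% interval 2.12 to 4.42, limma adjusted p = 0.00327), which is 9.65-fold. In ICC-MY it was higher by 3.92 (SE 0.50, 95% interval 2.77 to 5.07, adjusted p = 0.0014), or 15.1-fold. Adjusted p-values here come from 1 limma fit over all 8 arrays and are corrected over all 45037 probe sets, with 0.05 as the threshold. The comparisons of the 2 classes with tissue share the same 2 tissue arrays. As background, 7.16% of all probe sets passed as higher in ICC-DMP and 5.95% in ICC-MY, and 12.6% passed in either direction in each. For the mean of both classes both Kit probe sets also passed as higher, by 3.60 (SE 0.45, adjusted p = 0.00111) and 2.67 (SE 0.23, adjusted p = 0.00016), beside 6.97% of all probe sets passing as higher and 13.6% in either direction. Of the 6 probe sets of both genes, 2 passed as higher in each comparison, the 2 of Kit.

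The dimmer Kit probe set, 1415900_a_at, separated all 3 groups. It read 7.44, 7.16 and 7.17 in ICC-DMP, 8.64, 9.16 and 9.52 in ICC-MY, and 5.34 and 5.68 in tissue, with no overlap between any 2 groups. It was higher than in tissue by 1.75 in ICC-DMP (SE 0.25, adjusted p = 0.00249) and by 3.60 in ICC-MY (SE 0.25, adjusted p = 7.36e-05). These calls, like those of the brighter probe set, held when each array was left out in turn, with adjusted p-values up to 0.0246, for the brighter probe set in ICC-DMP without tunica muscularis replicate 1.

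The 2 Kit probe sets differed in how they placed the ICC classes. The dimmer one was lower in ICC-DMP than in ICC-MY by 1.85 (SE 0.23, 95% interval -2.37 to -1.33, adjusted p = 0.00174), where 2.52% of all probe sets passed as lower and 7.41% in either direction. The brighter one differed by -0.65 (SE 0.45, 95% interval -1.68 to 0.38, adjusted p = 0.564) and did not pass, although it was lower in ICC-DMP by 0.91 under quantile normalization (adjusted p = 0.0229). ICC-MY replicate 1, the lowest ICC-MY array on both Kit probe sets, had a narrow range of values over all probe sets (SD 1.98), as had tunica muscularis replicate 1 (SD 2.06), against 2.22 to 2.31 on the other arrays. Without these 2 arrays the brighter probe set was lower in ICC-DMP by 1.11 (SE 0.20, adjusted p = 0.0135). With 1 array left out it ran from -1.11 (without ICC-MY replicate 1) to -0.31 (without ICC-MY replicate 2) and did not pass (adjusted p = 0.123 to 0.808).

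Taken within each array, the brighter minus the dimmer Kit probe set was 3.63, 4.18 and 3.67 in ICC-DMP, 2.16, 3.25 and 2.47 in ICC-MY, and 1.86 and 2.75 in tissue. The ICC-DMP arrays thus had the widest gap, above every array of the other groups, and ICC-MY and tissue overlapped. Levels of different probe sets cannot be compared, but a gap that changes between groups shows that the 2 readouts of Kit did not move by the same amount. Which part of the transcript each probe set reads was not analysed here. Actin control probes at the 3' end read above those at the 5' end, a measure of how far along a transcript the copying reached. That excess was 4.66 for ICC-DMP replicate 3, 4.28 for ICC-MY replicate 3 and 2.53 to 3.53 for the remaining arrays. Its part in the gap was not tested.

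**Figure D1:**
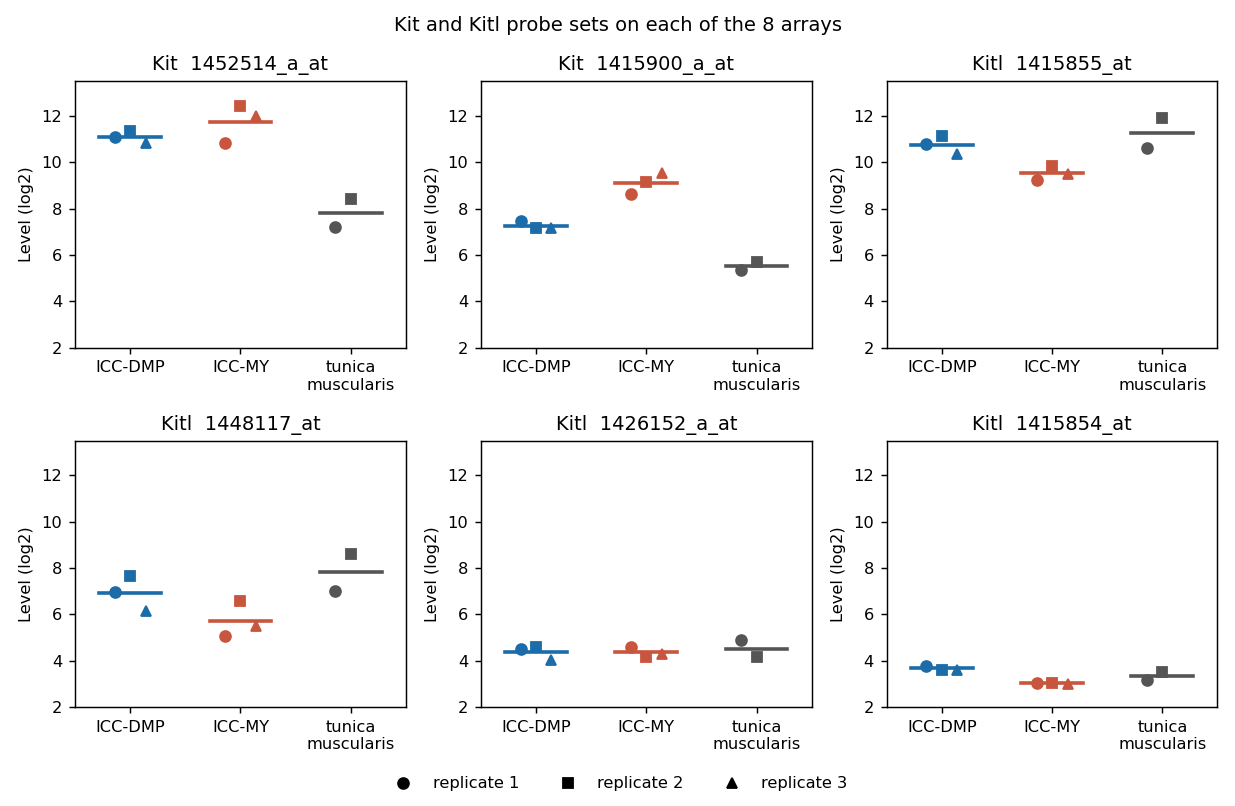
Level of each Kit and Kitl probe set (log2, vertical axis) on the 8 arrays, by group, with symbols for the replicate number and a bar for the group mean. Both Kit probe sets lie higher in all ICC arrays than in tissue, 1415855_at of Kitl is lowest in the 3 ICC-MY arrays (9.25 to 9.83), and the 2 dim Kitl probe sets stay between 3.01 and 4.88.

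On its brightest probe set, 1415855_at, Kitl was lowest in ICC-MY, with its highest group mean in tissue. It read 10.80, 11.12 and 10.36 in ICC-DMP, 9.25, 9.83 and 9.51 in ICC-MY, and 10.61 and 11.91 in tissue. Every ICC-MY array lay below every array of the other groups, while ICC-DMP and tissue overlapped. Means were 10.76 ± 0.38 (SD, n = 3) in ICC-DMP, 9.53 ± 0.29 (SD, n = 3) in ICC-MY and 11.26 ± 0.92 (SD, n = 2) in tissue. In these bulk samples, fewer Kitl-expressing cells and less Kitl RNA per cell cannot be told apart.

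In ICC-MY the bright Kitl probe set fell by 1.73 relative to tissue (SE 0.38, 95% interval -2.62 to -0.85, adjusted p = 0.0212), which is 3.32-fold lower. It was 1 of the 6 member probe sets to pass as lower there, beside 6.68% of all probe sets. The call depended on single arrays: it was lost without ICC-MY replicate 3 (-1.72, adjusted p = 0.0575) and without tunica muscularis replicate 2 (-1.08, adjusted p = 0.0973). In ICC-DMP the difference from tissue was -0.50 (SE 0.38, 95% interval -1.39 to 0.38, adjusted p = 0.564) and did not pass, beside 5.40% of all probe sets that passed as lower. It was 0.15 without tunica muscularis replicate 2 and -1.15 without replicate 1, so its sign differed with which tissue array was kept. For the mean of both ICC classes the difference was -1.12 (SE 0.34, adjusted p = 0.0736), and it passed as lower with the replicate number of the titles as a block (-1.01, adjusted p = 0.0188) and without tunica muscularis replicate 1 (-1.77, adjusted p = 0.0113). Here 6.63% of all probe sets passed as lower.

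Between the ICC classes the bright Kitl probe set differed by 1.23, with ICC-DMP above ICC-MY on every array (SE 0.34, 95% interval 0.44 to 2.02, adjusted p = 0.0795), and did not pass. It passed as higher in ICC-DMP with the replicate block (1.23, adjusted p = 0.00817), and also under quantile normalization (1.0, adjusted p = 0.00815). Without either tissue array it passed too, with the difference of 1.23 unchanged. Those fits hold the same ICC arrays and only leave the spread between the tissue arrays out. They are therefore not separate checks of the ICC arrays. As background, 4.88% of all probe sets passed as higher in ICC-DMP than in ICC-MY. On this probe set the group means ran tissue, ICC-DMP, ICC-MY; tissue and ICC-DMP overlapped and did not differ beyond their spread, while ICC-DMP and ICC-MY did not overlap. The other Kitl probe sets did not all give this order.

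The second Kitl probe set, 1448117_at, gave the same order of group means. It read 6.96, 7.64 and 6.13 in ICC-DMP, 5.06, 6.60 and 5.52 in ICC-MY, and 7.03 and 8.60 in tissue. The spread within groups was wide (SD 0.75, 0.79 and 1.11), and only ICC-MY and tissue did not overlap. Relative to tissue it differed by -2.09 in ICC-MY (SE 0.62, adjusted p = 0.0699) and by -0.90 in ICC-DMP (SE 0.62, adjusted p = 0.508), and between the classes by 1.18 (SE 0.56, adjusted p = 0.339). Leaving out 1 array at a time gave -2.88 to -1.30 in ICC-MY, with the ends set by tunica muscularis replicates 1 (adjusted p = 0.0411) and 2 (adjusted p = 0.36), and -1.69 to -0.12 in ICC-DMP with the same 2 arrays at the ends. For the ICC mean (-1.50) the range was -2.28 to -0.71. The difference in ICC-MY passed under 7 of 17 alternatives. With the replicate block it passed as lower in ICC-MY against tissue (-1.84, adjusted p = 0.00329), as lower in the ICC mean than in tissue (-1.25, adjusted p = 0.0125) and as higher in ICC-DMP than in ICC-MY (1.18, adjusted p = 0.0167). Over the 8 arrays it had a Pearson r of 0.96 with the bright Kitl probe set, a description over arrays that share groups and processing. The gap between these 2 Kitl probe sets was 3.48 to 4.23 in ICC-DMP, 3.23 to 4.19 in ICC-MY and 3.31 to 3.59 in tissue, so its ranges overlapped.

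The other 2 Kitl probe sets were dim. 1426152_a_at read 4.50, 4.60 and 4.01 in ICC-DMP, 4.61, 4.17 and 4.30 in ICC-MY, and 4.88 and 4.18 in tissue, with differences of -0.16 (SE 0.26) in ICC-DMP and -0.17 (SE 0.26) in ICC-MY relative to tissue, and of 0.01 (SE 0.23) between the classes. 1415854_at read 3.79, 3.60 and 3.62 in ICC-DMP, 3.05, 3.04 and 3.01 in ICC-MY, and 3.16 and 3.51 in tissue. To place these values, 13 genes of eye lens, retina, tooth enamel, testis, lung and kidney were read on the same arrays: their median lay at 3.62 to 3.68 in ICC-DMP, 3.60 to 4.01 in ICC-MY and 3.54 to 3.89 in tissue, and single genes reached 6.23. Both dim Kitl probe sets lay within the range of these genes. Of the dim pair 1415854_at passed in 1 comparison, as higher in ICC-DMP than in ICC-MY by 0.64 (SE 0.13, adjusted p = 0.0223). That call was lost without any 1 of ICC-DMP replicates 1, 2 and 3 and ICC-MY replicates 2 and 3 (adjusted p = 0.065 to 0.104).

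**Figure D2:**
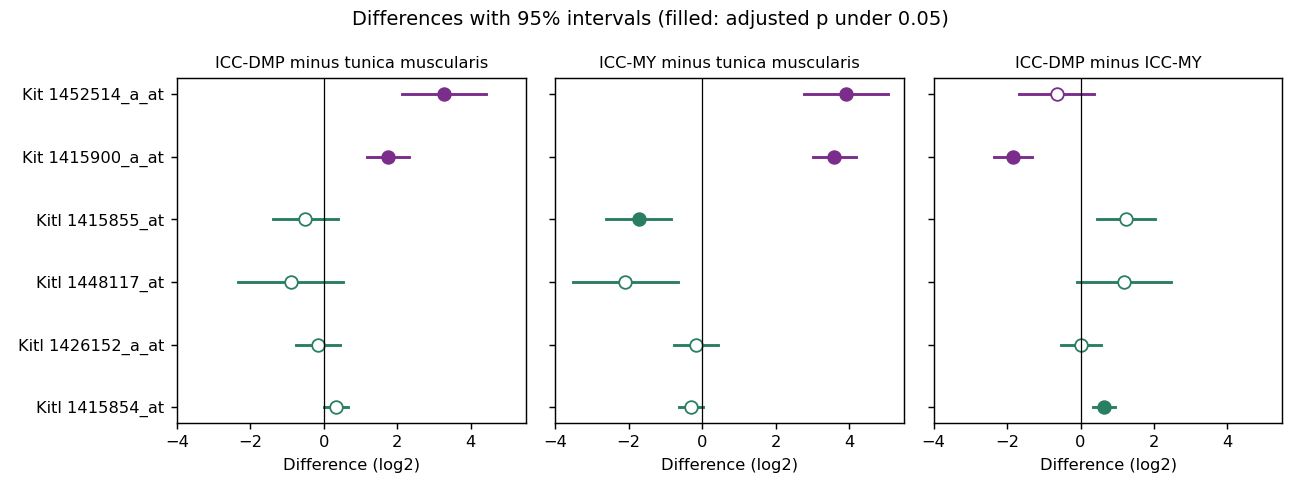
Differences (log2, horizontal axis) of the 6 probe sets in 3 comparisons, with 95% intervals; filled symbols passed at an adjusted p under 0.05. The Kit probe sets lie to the right of 0 in both comparisons with tissue, and the bright Kitl probe set is below 0 in ICC-MY (-1.73) with an interval that spans 0 in ICC-DMP.

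Markers of the ICC and of other Kit-bearing cells were read beside Kit. Of 10 measured ICC markers other than Kit, 3 passed as higher in ICC-DMP and 7 in ICC-MY, each against tissue, beside 4.06% and 4.08% of 18193 genes, each represented by its brightest probe set. In either direction 12% of these genes passed in ICC-DMP against tissue, 14% in ICC-MY against tissue, 13.7% for the mean of both and 8.60% between the classes. Ano1, the calcium-activated chloride channel of the pacemaker current, was higher by 2.09 (SE 0.49) in ICC-DMP and by 2.03 (SE 0.49) in ICC-MY (adjusted p = 0.0279 and 0.0318). Between the classes 1 of the 10 was higher and 5 were lower in ICC-DMP (median -1.52), beside 5.30% and 3.30% of all genes. The higher one was Thbs4 and the lower ones were Prkcq, Edn3, Cd44, Slc12a2 and Cacna1h. Thbs4, a matrix thrombospondin, was higher in ICC-DMP than in ICC-MY by 2.71 (SE 0.28), and Prkcq, protein kinase C theta, was lower there by 4.52 (SE 0.42). The list may draw on profiles of these same cells and is not independent evidence of what they are.

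Mast cell markers were near the level of the genes of other organs in all groups. The mean of the 11 genes was 3.39 to 3.40 in ICC-DMP, 3.45 to 3.78 in ICC-MY and 3.48 to 3.63 in tissue, and no single gene read above 5.68. Of the 11, 1 was lower in ICC-DMP than in tissue (Cma1, mast cell chymase, -0.72, SE 0.19, adjusted p = 0.0468), beside 7.94% of all genes. In ICC-MY against tissue 0 passed by limma, with 0 at an unadjusted p under 0.05. Cpa3, carboxypeptidase A3, averaged 3.29 in ICC-DMP, 4.11 in ICC-MY and 3.84 in tissue. Ms4a2, the beta chain of the IgE receptor, averaged 3.37, 3.35 and 3.33. Between the classes 0 of the 11 passed by limma, beside 5.30% higher and 3.30% lower of all genes. At an unadjusted p under 0.05, 1 of the 11 was lower in ICC-DMP, which was Cpa3 (-0.82, SE 0.26, adjusted p = 0.121). The 7 melanocyte markers averaged 3.77 to 3.90 in ICC-DMP, 3.82 to 3.94 in ICC-MY and 3.84 to 3.96 in tissue, and 0 passed by limma in any comparison, with 0 at an unadjusted p under 0.05. The 13 genes of other organs likewise had 0 calls by limma, with 1 at an unadjusted p under 0.05 in each comparison with tissue and 0 between the classes.

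Markers of 1 known source of Kitl ran in the same order as the bright Kitl probe set, an order also seen in other marker lists. The median level of the 12 smooth muscle genes was 10.06 to 10.45 in ICC-DMP, 7.15 to 8.05 in ICC-MY and 10.82 to 12.01 in tissue, an order of tissue, ICC-DMP, ICC-MY with no overlap. Against tissue, 6 of the 12 fell in ICC-DMP and 10 in ICC-MY, and 9 were higher in ICC-DMP than in ICC-MY, beside 7.94%, 9.97% and 5.30% of all genes. Actg2, the enteric smooth muscle actin, was higher in ICC-DMP than in ICC-MY by 3.38 (SE 0.31, adjusted p = 0.000405), and Myocd, the activator of the contractile programme, by 3.24 (SE 0.25, adjusted p = 0.000199). The part of smooth muscle RNA in the Kitl values was not tested. The same order without overlap was found in enteric glia markers, with medians of 6.86 to 6.87 in tissue, 4.70 to 5.12 in ICC-DMP and 4.33 to 4.51 in ICC-MY. Mesothelial markers also had it, at 8.70 to 8.91, 3.85 to 4.05 and 3.44 to 3.62, so it is not particular to smooth muscle. Neuron markers behaved otherwise: the 13 genes averaged 4.06 to 4.16 in ICC-DMP and 4.28 to 4.33 in ICC-MY, against 8.14 to 8.50 in tissue, and 12 of them fell in ICC-DMP and 11 in ICC-MY.

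Other cell types of the muscle coat were compared through the mean of both ICC classes against tissue, in which 3.85% of genes passed as higher and 9.82% as lower. All 6 mesothelial markers were lower (median -5.67), as were 7 of 9 macrophage, 3 of 6 enteric glia, 4 of 9 fibroblast and 2 of 8 epithelial markers. Of 10 markers of endothelial cells, which are known to make Kitl, 1 was higher and 2 were lower. Between the classes 4 of the 10 (Cdh5, Esam, Cldn5 and Emcn) were lower in ICC-DMP and 1 (Plvap) was higher, beside 3.30% and 5.30% of all genes. Their median difference was -0.54, where the bright Kitl probe set differed by 1.23 and did not pass. The part of endothelial RNA in the Kitl values was not tested. All 10 immediate early genes, which respond to stress and to tissue dissociation, were higher (median 4.30). Between the classes 7 of the 10 were also higher in ICC-DMP than in ICC-MY (median 1.48), beside 5.30% of all genes. These genes moved in the same direction as Kit against tissue. Between the classes the Kit probe sets differed the other way, by -0.65 (not passed) and -1.85. The part of immediate early genes in the Kit differences was not tested.

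**Figure D3:**
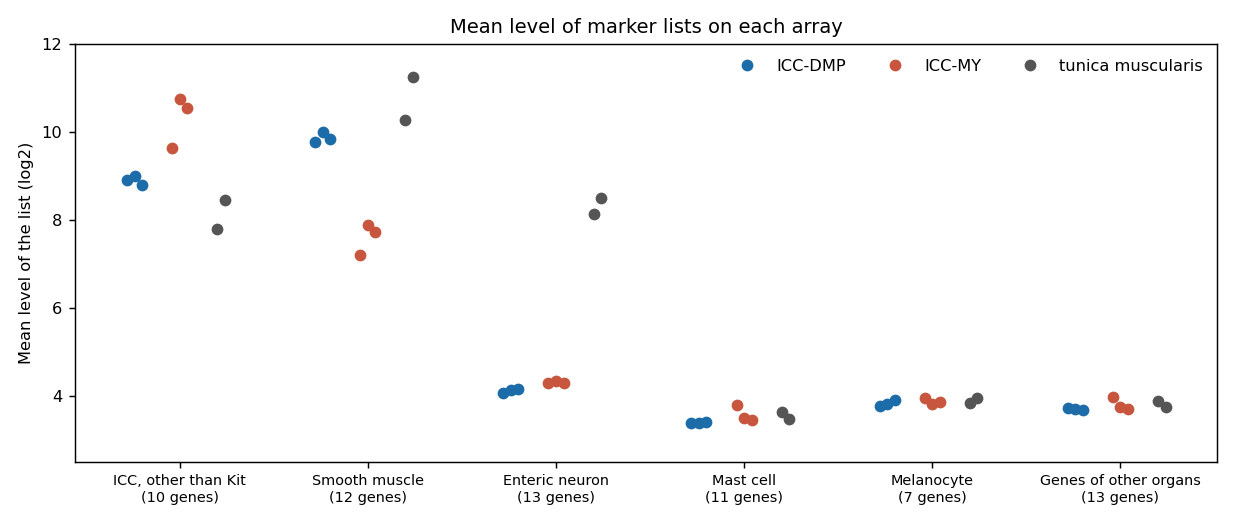
Mean level (log2, vertical axis) of 6 marker lists on each array, 1 point per array, by group. Smooth muscle markers lie at 7.20 to 7.89 in ICC-MY, against 10.26 to 11.26 in tissue, in the same group order as the bright Kitl probe set, while mast cell and melanocyte markers stay between 3.39 and 3.96 in all groups, as low as the genes of other organs.

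The wider Kit pathway was read from 6 lists of related receptors, signalling proteins, inhibitors, transcription factors and proteases, with 76 measured genes. In ICC-DMP against tissue 7 were higher and 6 lower (9.21% and 7.89%, beside 4.06% and 7.94% of all genes). In ICC-MY 8 were higher and 12 lower (10.5% and 15.8%, beside 4.08% and 9.97%). Between the classes 7 were higher and 4 lower in ICC-DMP (9.21% and 5.26%, beside 5.30% and 3.30%). The median difference of the 76 genes was 0.06, 0.01 and -0.03 in these comparisons, and that of all genes -0.04, -0.02 and -0.02. The counts moved with the arrays: without tunica muscularis replicate 1, 2 genes were higher in ICC-DMP and 5 in ICC-MY, and without tunica muscularis replicate 2, 6 were lower in ICC-MY.

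The nearest relatives of Kit are the class III receptor tyrosine kinases. Of 10 measured receptors and ligands 2 were higher and 1 lower in ICC-DMP than in tissue, beside 4.06% and 7.94% of all genes. In ICC-MY 1 was higher and 5 lower (beside 4.08% and 9.97%). Between the classes 4 were higher and 1 lower in ICC-DMP (beside 5.30% and 3.30%). Pdgfrb, the PDGF receptor beta of pericytes, was higher than in tissue by 1.90 (SE 0.36, adjusted p = 0.0102) in ICC-DMP and by 3.37 (SE 0.36, adjusted p = 0.000587) in ICC-MY. Csf1r, the macrophage growth factor receptor, fell by 5.12 (SE 0.38) in ICC-DMP and by 4.44 (SE 0.38) in ICC-MY. Pdgfra, the receptor that marks the fibroblast-like cells of gut muscle, averaged 11.09 in ICC-DMP, 9.00 in ICC-MY and 10.77 in tissue and was higher in ICC-DMP than in ICC-MY by 2.10 (SE 0.41, adjusted p = 0.0186).

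3 PDGF ligand genes differed between the ICC classes. Pdgfc averaged 8.87 in ICC-DMP, 5.28 in ICC-MY and 9.03 in tissue, and was higher in ICC-DMP than in ICC-MY by 3.59 (SE 0.23, adjusted p = 8.32e-05). Pdgfa was higher there by 2.90 (SE 0.20, adjusted p = 0.00011) and Pdgfd by 2.24 (SE 0.35, adjusted p = 0.00593). Over all probe sets of the gene, 2 of 2 passed for Pdgfc and for Pdgfa, and 1 of 3 for Pdgfd. Relative to tissue Pdgfa was higher in ICC-DMP (0.85, SE 0.22) and lower in ICC-MY (-2.06, SE 0.22). Pdgfc (-3.75, SE 0.26) and Pdgfd (-2.03, SE 0.39, 1 of 3 probe sets) were lower in ICC-MY.

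Adaptors and kinases that act next to the activated receptor form a list of 20 measured genes. Of these 1 was higher and 0 lower by limma in ICC-DMP than in tissue, with 4 and 1 at an unadjusted p under 0.05, and 1 was higher and 1 lower in ICC-MY. The shares of all genes were 4.06% higher and 7.94% lower in ICC-DMP, and 4.08% and 9.97% in ICC-MY. Between the classes 2 were higher and 1 lower in ICC-DMP, beside 5.30% and 3.30% of all genes. Pik3r1, the regulatory subunit of phosphoinositide 3-kinase that docks on Kit, was higher in ICC-DMP by 1.02 (SE 0.27, adjusted p = 0.0444). Plcg1, phospholipase C gamma 1, was higher in ICC-MY by 0.67 (SE 0.16, adjusted p = 0.0289), where the kinase gene Jak2 was lower (-1.25, SE 0.24, adjusted p = 0.0121). Between the classes the docking protein gene Gab1 (0.95, SE 0.18) and Jak2 (1.12, SE 0.22) were higher in ICC-DMP, and Fyn, an SRC-family kinase, was lower (-0.85, SE 0.15). These calls are on the brightest probe set. Over all probe sets of the gene, 2 of 4 passed for Pik3r1, 1 of 3 for Plcg1 and for Gab1, 1 of 2 for Jak2 and 2 of 2 for Fyn.

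Among 13 negative regulators, 2 were higher and 0 lower by limma in ICC-DMP than in tissue, with 4 and 2 at an unadjusted p under 0.05, and 4 were higher and 3 lower in ICC-MY. Of all genes 4.06% were higher and 7.94% lower in ICC-DMP, and 4.08% and 9.97% in ICC-MY. Cbl, a ubiquitin ligase that drives Kit degradation, was higher in both classes (0.71, SE 0.16 and 0.76, SE 0.16). Cblb, from the same list, was lower in ICC-MY than in tissue (-0.95, SE 0.21, adjusted p = 0.0212). Of its 3 probe sets, 1 passed there as higher and 1 as lower. Socs5, a suppressor of cytokine and growth factor signalling, was higher by 1.07 (SE 0.21) in ICC-DMP and by 1.45 (SE 0.21) in ICC-MY. Sh2b3, the adaptor that restrains Kit in blood cells, was higher in ICC-MY (1.34, SE 0.18, adjusted p = 0.00181) and lower in ICC-DMP than in ICC-MY (-0.85, SE 0.16, adjusted p = 0.0153). Socs6, which binds activated Kit, and the docking protein gene Dok1 fell in ICC-MY relative to tissue (-1.18, SE 0.27 and -1.11, SE 0.24). Over all probe sets of the gene, in ICC-MY 2 of 3 passed for Cbl, 1 of 2 for Socs5 and for Sh2b3, 1 of 3 for Socs6 and 1 of 1 for Dok1.

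Downstream, 1 of 12 measured MAPK, AKT and STAT genes was higher and 1 lower than in tissue in each class. Beside this, 4.06% and 7.94% of all genes passed in ICC-DMP, and 4.08% and 9.97% in ICC-MY. Stat3, a transcription factor of cytokine signalling, was higher by 4.63 (SE 0.35, adjusted p = 9.25e-05) in ICC-DMP and by 2.78 (SE 0.35, adjusted p = 0.0014) in ICC-MY, and higher in ICC-DMP than in ICC-MY by 1.85 (SE 0.32). Only 1 of its 4 probe sets passed in each of the comparisons with tissue. Nras, a RAS protein, was lower in ICC-DMP (-1.10, SE 0.18) and in ICC-MY (-0.77, SE 0.18). Braf did not pass on its brightest probe set. Of its 9 probe sets, 3 passed as higher in ICC-MY than in tissue and 4 as higher in ICC-DMP than in ICC-MY. Several listed genes of this pathway, Etv1 among them, have no probe set that names them alone and were not analysed here.

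Of 10 transcription factors known to act on Kit, 1 was higher and 1 lower in ICC-DMP than in tissue, beside 4.06% and 7.94% of all genes. In ICC-MY 1 was higher, beside 4.08% of all genes. Mitf, the factor that drives Kit in mast cells and melanocytes, averaged 8.25 in ICC-DMP, 8.90 in ICC-MY and 6.97 in tissue. It was higher than in tissue by 1.27 (SE 0.22, adjusted p = 0.00576) in ICC-DMP and by 1.93 (SE 0.22, adjusted p = 0.000748) in ICC-MY. Between the classes it differed by -0.65 (SE 0.19, adjusted p = 0.099). Both Kit probe sets had the same order of group means, but the ICC classes did not differ beyond the threshold for Mitf or the brighter Kit probe set. The part of Mitf in the Kit values was not tested. Lmo2, a bridging protein of the blood-forming factor complex, averaged 4.31 in ICC-DMP, 6.95 in ICC-MY and 5.94 in tissue and was lower in ICC-DMP than in ICC-MY (-2.64, SE 0.32, adjusted p = 0.00161). Its partners Tal1, Gata1 and Gata2, which help drive Kit in blood progenitors and mast cells, averaged 2.68, 3.66 and 4.81 in ICC-DMP, 2.96, 3.59 and 4.69 in ICC-MY, and 2.78, 3.55 and 4.72 in tissue. Those values lie within the range of the genes of other organs. Sp1, which binds GC boxes, averaged 10.35 in ICC-DMP, 10.31 in ICC-MY and 9.64 in tissue and did not pass.

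Enzymes that release Kit or Kitl from the cell surface, and their inhibitors, gave 0 higher and 3 lower of 11 by limma in ICC-DMP and 0 higher and 2 lower in ICC-MY, with 0 higher at an unadjusted p under 0.05 in either. The lower counts stand beside 7.94% of all genes in ICC-DMP and 9.97% in ICC-MY, the higher ones beside 4.06% and 4.08%. Adam19, a metalloprotease, was lower in ICC-DMP (-1.34, SE 0.20) and in ICC-MY (-1.24, SE 0.20, where 1 of its 2 probe sets passed). Timp1, a metalloprotease inhibitor, was also lower in both (-0.94, SE 0.24 and -1.12, SE 0.24). Between the classes 0 of 11 passed by limma, with 0 at an unadjusted p under 0.05.

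**Figure D4:**
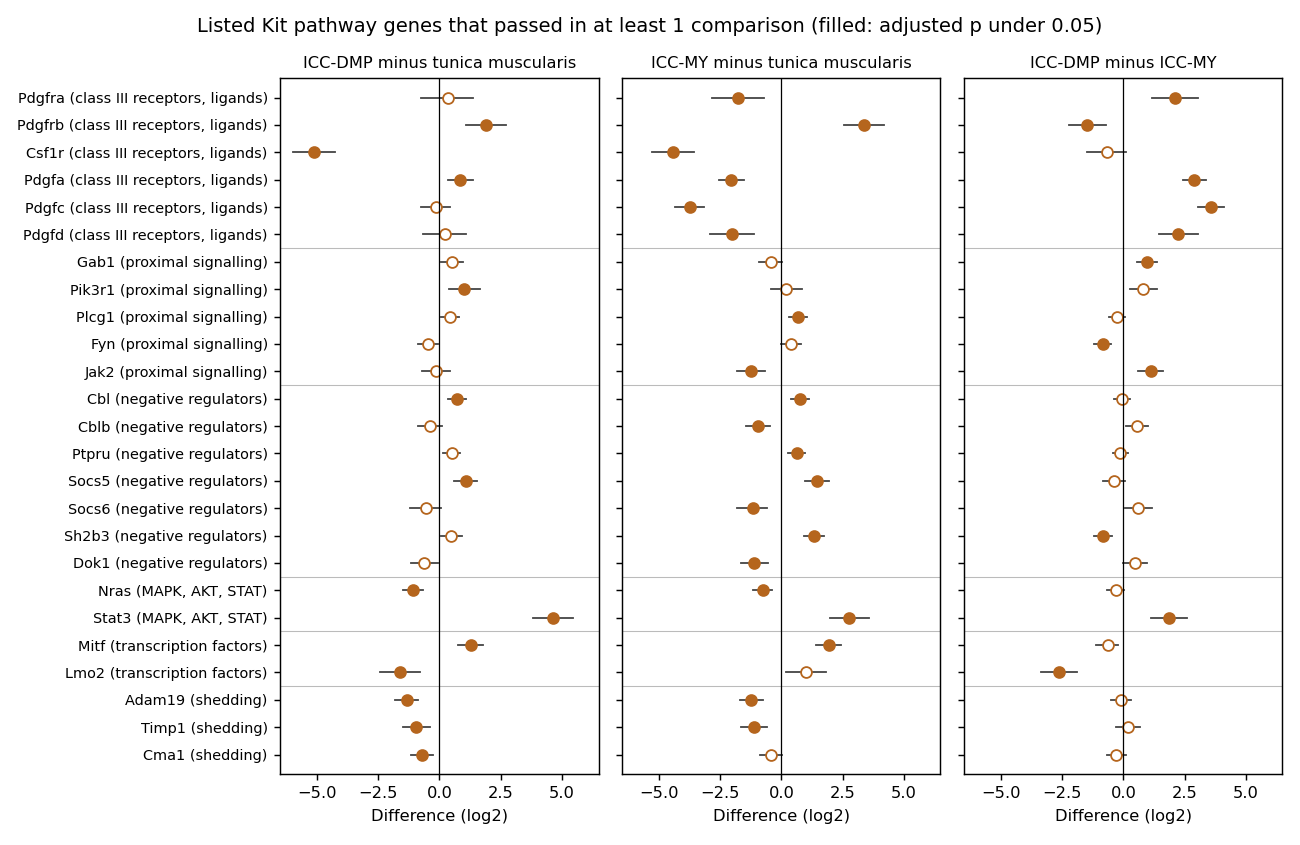
Differences (log2, horizontal axis) with 95% intervals for listed Kit pathway genes that passed in at least 1 of 3 comparisons; filled symbols passed. Csf1r lies far to the left in both ICC classes (-5.12 and -4.44), and Pdgfc, Pdgfa and Pdgfd lie to the right between the classes.

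The genes whose levels over the 8 arrays were most like the brighter Kit probe set were Myo6 (Pearson r = 0.991), Sytl2 (0.989), Gpr20 (0.988), Socs5 (0.986) and Malat1 (0.984), among 3911 genes that reached a level of 8 and varied by at least 1. Gpr20, an orphan G protein-coupled receptor, averaged 11.24 ± 0.13 (SD, n = 3) in ICC-DMP, 11.80 ± 0.78 (SD, n = 3) in ICC-MY and 8.27 ± 0.38 (SD, n = 2) in tissue. Sytl2, a vesicle trafficking gene, averaged 10.36 ± 0.27 in ICC-DMP, 11.14 ± 0.65 in ICC-MY and 7.76 ± 0.33 in tissue. All 5 were higher than in tissue in both classes in limma, with differences of 1.07 to 3.53, and 0 passed between the classes. They were picked by likeness to Kit over these same arrays, so those outcomes largely follow from the choice and are not separate evidence. Against the dimmer Kit probe set their r was 0.811 to 0.932, and they ranked 63rd to 258th there. The likeness is across arrays in 3 groups that share processing, and it describes the pattern only.

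Most like the bright Kitl probe set were Sec24d (r = 0.994), Mpdz (0.986), N4bp2 (0.985), Lrrfip1 (0.985) and Lpp (0.984). Sec24d, a coat protein of secretory vesicles, averaged 9.94 ± 0.31 (SD, n = 3) in ICC-DMP, 8.83 ± 0.35 (SD, n = 3) in ICC-MY and 10.50 ± 0.70 (SD, n = 2) in tissue. Lpp, a focal adhesion protein, averaged 11.75 ± 0.27, 10.31 ± 0.31 and 12.05 ± 0.77 in the same groups. In limma all 5 fell in ICC-MY relative to tissue (-1.25 to -1.73), 0 passed in ICC-DMP, and Mpdz (1.14, SE 0.28) and Lpp (1.44, SE 0.30) passed as higher in ICC-DMP than in ICC-MY. As for Kit, the genes were picked by likeness over these arrays, so those outcomes largely follow from the choice. Between the receptor and its ligand, r over the 8 arrays was -0.52 for the 2 bright probe sets and -0.80 for the dimmer Kit and the bright Kitl probe set.

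**Figure D5:**
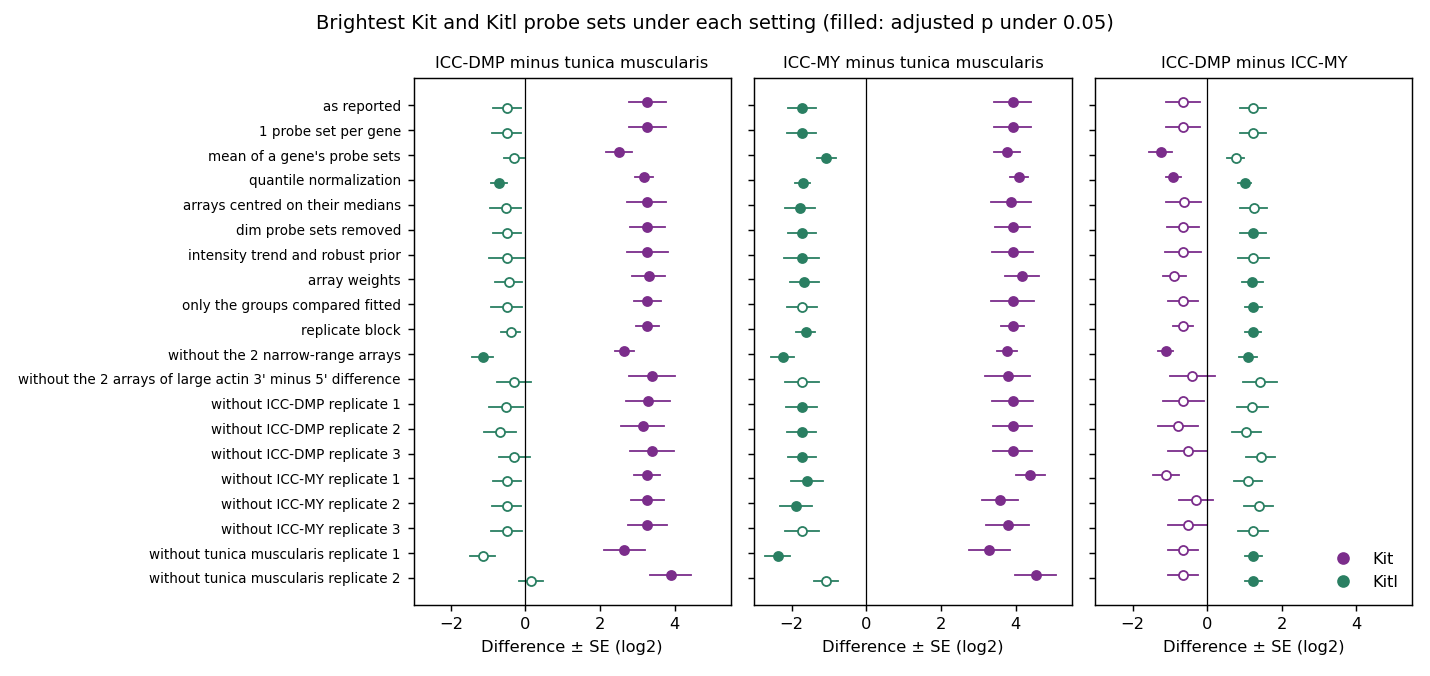
Difference ± SE (log2, horizontal axis) of the brightest Kit and Kitl probe sets in 3 comparisons, as reported and under each other setting; filled symbols passed at an adjusted p under 0.05. In the setting that averages probe sets, the point is the mean over all probe sets of the gene. Kit is at 2.51 or more against tissue in every setting, that one included, while Kitl against tissue in ICC-DMP runs from -1.15 to 0.15.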

How the data were processed

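The authors deposited a log2 expression value for each probe set on each array, from RNA labelled from about 50 ng of total RNA after 2 rounds of amplification, per the labels' protocols. The tools that the submitters' processing notes name are RMA and limma, with no version or role, so whether all arrays were normalized in 1 run is unknown here. Values ran from 1.87 to 14.0, with array medians of 4.18 to 4.30. No further normalization was applied. Of 45101 probe sets, 64 controls were left out; 34945 of the rest named 1 gene, 932 several, and 9160 are unnamed here.

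Groups came from the titles. Differences were fitted with limma 3.58.1 in R 4.3.3 (lmFit, contrasts.fit, eBayes) over all 8 arrays in 3 groups, with Benjamini-Hochberg adjustment over 45037 probe sets; the test was tried on simulated data. In gene lists and likeness, a gene was represented by its brightest single-gene probe set (18193 genes). Genes named were all members, the 5 most alike by Pearson r, and up to 4 called members of each list by difference size. Where none passed, the 2 most abundant could be named, and all ICC markers were allowed. The endothelial and mast cell genes and Sp1, Tal1, Gata1, Gata2 and Cblb named beyond that were chosen after their values were seen. The members and the 19 lists were chosen with earlier results of these data known. Same-numbered arrays of different groups deviated together (r of 0.12 to 0.57 in all 7 pairs). The 14 other pairs had an r of -0.57 to 0.14. Deviations were taken from group means, so the 2 tissue arrays mirror each other and the other pairs are not an independent comparison. The replicate block is treated as a pairing taken from the titles. The number of arrays, above all the 2 of tissue, limits the precision. Promoter windows and gene positions are from RefSeq (GRCm38.p6).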

Additional observations from a re-analysis of the deposited data

How the results depend on the processing

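Kit against tissue kept its direction and passed under every alternative run: with 1 probe set per gene, averaged probe sets, quantile normalization, median centring, dim probe sets removed, a trended prior, array weights, only the compared groups, the replicate block, and each array or doubtful pair of arrays left out. The remaining results on the brightest probe sets moved as follows, and the cause was not tested. Values with averaged probe sets are means over all probe sets of the gene and not readings of the brightest one alone. Kit in ICC-DMP against ICC-MY (-0.65) passed with averaged probe sets (-1.25), quantile normalization (-0.91) and without the 2 narrow-range arrays (-1.11), but with no 1 array left out, where it ran from -1.11 to -0.31. Kitl in ICC-DMP against tissue passed as lower under quantile normalization (-0.71) and without the narrow-range arrays (-1.15), and ran from -1.15 to 0.15 with 1 array left out. For the ICC mean against tissue Kitl passed under quantile normalization (-1.21), with dim probe sets removed (-1.12), with the replicate block (-1.01) and without the narrow-range arrays (-1.70), and ran from -1.77 to -0.47 with 1 array left out. Kitl between the classes passed under quantile normalization (1.0), with dim probe sets removed, only these groups fitted or the replicate block (1.23 each), without the narrow-range arrays (1.09) and with array weights (1.21). It ran from 1.05 to 1.43 with 1 array left out, and was 0.76 with averaged probe sets, where it did not pass (adjusted p = 0.0883). Kitl in ICC-MY against tissue no longer passed with only these groups fitted (-1.73) or without the 2 arrays of large actin 3' minus 5' difference (-1.72, an alternative chosen after seeing the data), ran from -2.38 to -1.08 with 1 array left out, and was -1.07 with averaged probe sets, where it passed. The replicate block changed no other call on a member probe set than those printed with the results.

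Signs turned only for differences near 0 on the dim Kitl probe sets and for Kitl in ICC-DMP. For 1426152_a_at they were 0.19 (narrow-range arrays out, and tunica muscularis replicate 1 out), 0.02 (large actin arrays out, and ICC-DMP replicate 3 out) in ICC-DMP, 0.06 and 0.18 in ICC-MY and 0.13 and 0.19 in the ICC mean (narrow-range arrays out, then tunica muscularis replicate 1 out), and -0.05, -0.11, -0.09 and -0.02 between the classes without ICC-DMP replicate 1 or 2 or ICC-MY replicate 2 or 3. Without tunica muscularis replicate 2 its 3 differences from tissue were -0.51 each. For 1415854_at in the ICC mean they were -0.02 (median centring), -0.16 (narrow-range arrays out), -0.01 (ICC-DMP replicate 1 out) and -0.16 (tunica muscularis replicate 1 out).

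Of the 76 pathway genes, the 7 higher in ICC-DMP became 4 with a trended prior, and 4 higher and 3 lower without the large actin arrays. In ICC-MY 5 were higher and 5 lower with only these groups fitted, and 5 higher without the large actin arrays. In the ICC mean 12 rather than 7 were lower under quantile normalization. Between the classes 7 were lower without the narrow-range arrays, and 4 were higher and 2 lower without the large actin arrays. With 1 array left out, 2 to 7 were higher and 3 to 6 lower in ICC-DMP, 5 to 11 higher and 6 to 11 lower in ICC-MY, 5 to 12 higher and 5 to 8 lower in the ICC mean, and 4 to 9 higher and 1 to 6 lower between the classes. By Spearman rho Socs5 and Malat1 ranked first in likeness to Kit (rho 1 each), and none of the 5 genes most like Kitl ranked above 14th.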
